A study of Mus musculus with 10 samples.

Results

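The 55 mitosis and spindle genes described here were chosen by symbol, from 24385 gene symbols in a table of RNA read counts of mouse bone marrow-derived dendritic cells. They cover mitotic kinases, cyclins and anaphase regulators, kinetochore proteins, kinesins, spindle assembly factors, cytokinesis proteins, the chromosomal passenger complex, condensin, chromosome proteins and the transcription factors Foxm1 and Mybl2. The choice was made with earlier results of these data known. All 55 had a row in the table and all 55 passed the filter on low counts, which left 13075 genes to test. The cells came from the marrow of wild-type female C57BL/6 mice, 8 to 10 weeks old, and grew in 20 ng/mL GM-CSF, a growth factor that turns marrow progenitors into dendritic cells. Non-adherent immature cells were collected on day 6. They received AMLE (apple mango leaf extract) at 400 µg/mL, or 0.04% DMSO as the vehicle, and were harvested after 24 h. RNA was sequenced in 3 AMLE and 3 DMSO libraries, and open chromatin was mapped by ATAC sequencing, which marks accessible DNA by transposase insertion, in 2 AMLE and 2 DMSO libraries.

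Dividing cells switch on these genes together in late interphase. Cdk1 bound to cyclin A or B drives entry into mitosis, condensin compacts the chromosomes, kinesins and their partners build the spindle, and kinetochores tie each chromosome to it. The spindle checkpoint holds back Cdc20, the activator of the anaphase-promoting complex, until every kinetochore is attached. The complex then marks cyclin B and securin for destruction, separase opens cohesin, and a contractile ring divides the cell. Many promoters of this programme carry CCAAT boxes, bound by NF-Y, and a cell cycle homology region, bound by the MuvB complex, which represses with pocket proteins in resting cells and activates with Mybl2 and Foxm1 in cycling ones. Marrow cultures in GM-CSF start from dividing progenitors, and mature dendritic cells do not divide.

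Total counts were 26010455, 34208286 and 26325173 in AMLE replicates 1 to 3 and 31413578, 28457863 and 28754835 in the DMSO replicates. A principal component analysis separated the groups on its first axis (76.58% of the variance). AMLE replicate 3 scored 23.01 and lay nearest to the DMSO libraries, while AMLE replicates 1 and 2 scored 38.3 and 46.54 and the DMSO libraries ran between −42.04 and −31.13. Of 9 dendritic cell markers, Cd209a and H2-Ab1 were lower in AMLE, Zbtb46 was higher and the rest, Itgax among them, were not called. Itgax, which encodes CD11c, averaged 688 ± 78.6 CPM in AMLE and 708 ± 101 CPM in DMSO (SD, n = 3 each). CPM are reads of a gene scaled to a common effective library size. Nothing in the labels ties a replicate to its own mouse or culture, and the p-values therefore cover only the spread between libraries, which may be technical.

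Mitotic transcripts were scarcer after AMLE across nearly the whole set, by 4.01-fold at the median. The 55 genes took up 0.101%, 0.0932% and 0.134% of all counts in AMLE replicates 1 to 3 and 0.416%, 0.377% and 0.446% in the DMSO replicates. By edgeR's quasi-likelihood test with Benjamini-Hochberg adjustment over all tested genes, 54 of the 55 fell, beside 25.6% of all tested genes, and 0 rose, beside 23.0%. None of the 55 was higher at an unadjusted p under 0.05, and DESeq2 and limma-voom also called 0 higher. All 54 fell at least 2-fold, which 4.40% of tested genes did, and 28 fell at least 4-fold, which 0.902% did. That last count was 13 without AMLE replicate 2 and 41 without AMLE replicate 3. On the log2 scale (AMLE minus DMSO) the 55 genes fell by 2.00 at the median, beside a median log2 fold change of −0.01 over all tested genes. Among the 500 called genes with the largest fall were 54 of the 55, and 21 stood among the first 100. In 54 genes every AMLE library lay below every DMSO library, as it did in 31.4% of tested genes. Each of the 54 was called again in each of 13 other fits. Leaving aside the fit against a 1.5-fold change, the largest adjusted p was 0.0106, for Cenpm without DMSO replicate 1. These are bulk libraries, in which fewer dividing cells and less mitotic RNA per cell cannot be told apart.

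**Figure D1:**
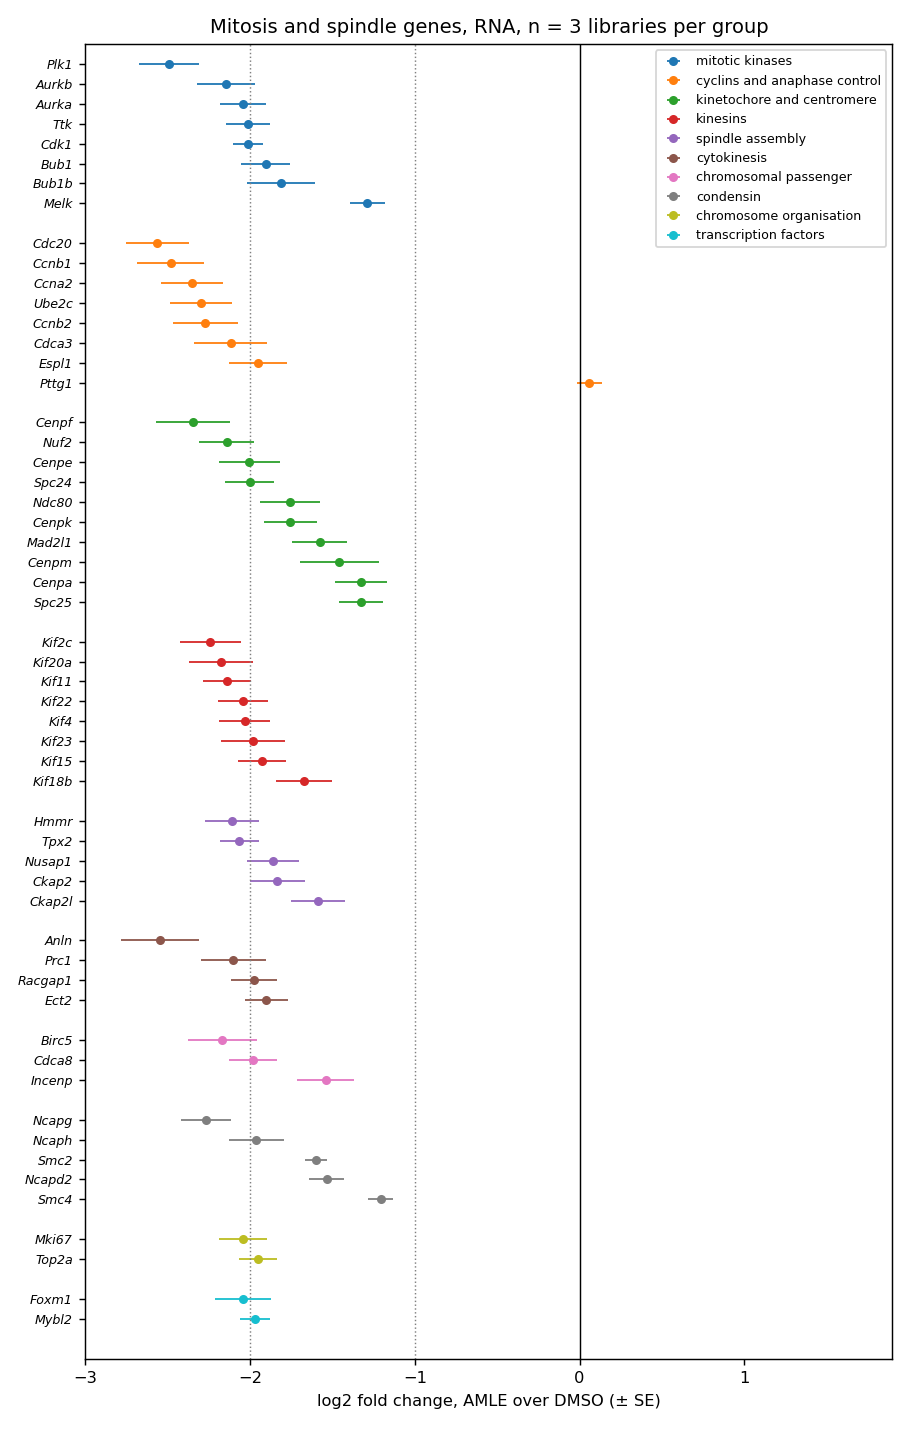
Log2 fold change of each of the 55 genes, AMLE over DMSO, with its standard error (edgeR, 3 libraries per group), grouped by role; dotted lines mark the 2-fold and 4-fold falls. All genes but Pttg1 lie left of the 2-fold line, between −2.56 for Cdc20 and −1.21 for Smc4, and Pttg1 sits at 0.06.

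The promoters of the set shared short sequence motifs. RefSeq tables of the build GRCm38.p6, the same as mm10, held an entry for 47 of the 55. Aurkb, Ccna2, Spc24, Kif20a, Tpx2, Incenp, Smc4 and Foxm1 had none. Sequences are printed for Cdc20, which had the largest fall of all, and for the kinase, kinetochore and condensin genes with the largest fall in their groups. The group picks were limited to genes with an ATAC peak near the listed start in some library. Among kinesins Kif2c fell most, but it had no such peak, and its listed start lies inside the gene. Kif11, next among kinesins with an entry and a peak, was taken in its place after values were seen. Each sequence runs 5′ to 3′ on the gene's strand from 250 bases before the listed start to 30 bases into the transcript. Capitals mark the core of the cell cycle homology region (TTTGAA or TTTAAA) and the CCAAT box, or their reverse complements (ATTGG is that of the CCAAT box, TTCAAA that of TTTGAA).
Cdc20 (chr4:118437314-118437593, minus strand): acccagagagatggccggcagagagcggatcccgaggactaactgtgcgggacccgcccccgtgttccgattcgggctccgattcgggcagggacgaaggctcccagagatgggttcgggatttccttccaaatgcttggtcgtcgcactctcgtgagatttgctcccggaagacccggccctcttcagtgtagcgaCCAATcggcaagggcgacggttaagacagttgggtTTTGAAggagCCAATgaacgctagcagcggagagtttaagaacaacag
Plk1 (chr7:122159185-122159464, plus strand): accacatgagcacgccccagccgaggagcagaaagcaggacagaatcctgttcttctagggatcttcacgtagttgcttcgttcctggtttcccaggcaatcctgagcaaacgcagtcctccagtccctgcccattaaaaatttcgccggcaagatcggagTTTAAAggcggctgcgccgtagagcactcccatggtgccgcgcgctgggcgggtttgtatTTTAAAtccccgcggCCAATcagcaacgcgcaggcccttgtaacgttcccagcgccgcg
Cenpf (chr1:189688057-189688336, minus strand): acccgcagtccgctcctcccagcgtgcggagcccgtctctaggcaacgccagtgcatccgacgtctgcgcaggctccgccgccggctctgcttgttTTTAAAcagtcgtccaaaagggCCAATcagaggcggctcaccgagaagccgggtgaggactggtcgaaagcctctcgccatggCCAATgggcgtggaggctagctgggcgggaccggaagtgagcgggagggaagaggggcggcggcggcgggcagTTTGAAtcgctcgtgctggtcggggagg
Kif11 (chr19:37376132-37376411, plus strand): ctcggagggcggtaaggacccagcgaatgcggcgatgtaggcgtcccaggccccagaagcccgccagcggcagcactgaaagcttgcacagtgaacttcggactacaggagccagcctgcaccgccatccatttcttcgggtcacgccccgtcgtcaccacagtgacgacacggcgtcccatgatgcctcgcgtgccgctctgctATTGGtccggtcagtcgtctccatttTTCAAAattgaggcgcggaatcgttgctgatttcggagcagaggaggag
Ncapg (chr5:45669675-45669954, plus strand): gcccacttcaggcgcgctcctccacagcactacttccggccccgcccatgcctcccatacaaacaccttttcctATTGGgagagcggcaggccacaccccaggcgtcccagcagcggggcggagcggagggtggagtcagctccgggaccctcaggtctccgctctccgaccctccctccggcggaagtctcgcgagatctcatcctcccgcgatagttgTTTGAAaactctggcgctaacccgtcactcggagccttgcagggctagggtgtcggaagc

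In Cdc20 the core began 18 bases before the start, between CCAAT boxes at −53 and −8, counted from the start base as +1. Cenpf had a TTTAAA at −154, CCAAT boxes at −132 and −71 and a TTTGAA at +3. Kif11 held both motifs on the opposite strand, at −45 for the CCAAT box and −19 for the core. Ncapg had its core at −30 and its CCAAT box farther upstream, at −176. The Plk1 promoter held the TTTAAA form at −89 and −29, a CCAAT box at −14 and a TTTGAA at +31, just past the printed end.

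Over −250 to +50 and both strands, the core was found in 37 of 47 promoters of the set (78.7%, Wilson 95% interval 65.1% to 88.0%), beside 19.4% of the promoters of tested genes and 24.7% of all 17224 listed promoters. TTTGAA was present in 34 of them and TTTAAA in 9, and in 25 a TTTGAA began between −50 and +30. Neither the letter counts nor the position count was made for other promoters, so no share stands beside them. CCAAT stood in 35 of 47 (74.5%, 60.5% to 84.7%), beside 38.7% for tested genes and 38.8% for all promoters. At least 2 CCAAT boxes were found in 23 (48.9%), beside 14.7% and 12.9%. Both motifs occurred in 32 (68.1%, 53.8% to 79.6%), beside 7.82% of tested genes and 10.0% of all promoters. Neither motif holds the other, and overlapping matches were all counted. A match describes the sequence and is not a binding site.

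Genes without these letters fell too, Pttg1 excepted. The 32 genes with both motifs had a median log2 fold change of −2.02. The 7 genes with neither motif (Melk, Pttg1, Mad2l1, Nuf2, Nusap1, Ncaph and Mybl2) had a median of −1.86 and ran from −2.14 for Nuf2 to 0.06 for Pttg1. The listed starts of Pttg1 and Mybl2 lie 1482 and 308 bp inside the gene, so their windows may miss the promoter in use. The same limit holds for some genes counted with a motif. Their listed starts lie inside the gene by 3852 bp for Kif2c, 646 bp for Cdca3, 514 bp for Ncapd2, 437 bp for Cenpm, 375 bp for Ect2 and 316 bp for Aurka. Ndc80, Kif2c, Kif15, Anln and Birc5 had the core alone, with a median of −2.17, and Bub1, Cenpk and Cenpm had CCAAT alone, with a median of −1.76. No test was made between groups of genes, which are not replicates.

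Mitotic kinases all fell, 8 of 8, with a median log2 fold change of −2.02. Cdk1, the kinase that drives entry into mitosis, had 20.8, 17.2 and 21.6 CPM in AMLE replicates 1 to 3, against 79.7, 76.5 and 84.0 CPM in the DMSO replicates. The groups were far apart and each was tight, giving a log2 fold change of −2.01 ± 0.09 (SE; edgeR adjusted p = 2.91e-05). Plk1, polo-like kinase, which acts from mitotic entry to cytokinesis, had 10.8, 10.2 and 16.6 CPM in AMLE, against 73.0, 64.6 and 73.1 CPM in DMSO. Its fall of 5.63-fold (−2.49 ± 0.18, adjusted p = 0.00013) was the largest among the kinases. Aurka, which matures centrosomes, fell by 2.04 on the log2 scale, and Aurkb, the kinase of the chromosomal passenger complex, fell by 2.15. The checkpoint kinases Ttk (−2.02), Bub1 (−1.91) and Bub1b (−1.81), the last encoding BubR1, also fell. Melk, a kinase expressed in proliferating cells, had the smallest fall of the group. It had 11.4, 11.9 and 13.2 CPM in AMLE, against 28.3, 26.9 and 34.0 CPM in DMSO, 2.44-fold lower (−1.29 ± 0.11, adjusted p = 0.00015).

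Cyclins and regulators of anaphase held both the largest fall and the only gene that was not called. Of 8 genes 7 fell, with a median of −2.29. Cdc20, which activates the anaphase-promoting complex, had 9.79, 8.55 and 14.7 CPM in AMLE replicates 1 to 3, against 67.3, 58.7 and 68.0 CPM in the DMSO replicates. That is a 5.91-fold fall (−2.56 ± 0.19, adjusted p = 0.000135). Ccnb1, cyclin B1, averaged 12.7 ± 4.05 CPM in AMLE and 70.6 ± 5.20 CPM in DMSO (SD, n = 3 each) and fell by 2.48 on the log2 scale. Ccna2 (−2.35), Ccnb2 (−2.27), Ube2c, the ubiquitin-conjugating enzyme of the same complex (−2.30), and Cdca3, which promotes destruction of the Wee1 kinase (−2.12), fell as well.

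Separase fell and securin, which binds it until anaphase, was not called. Espl1, which encodes separase, had 13.6, 12.3 and 20.0 CPM in AMLE, against 58.4, 55.9 and 62.5 CPM in DMSO (−1.95 ± 0.17, adjusted p = 0.000249). Pttg1, which encodes securin, its inhibitor, had 22.3, 20.1 and 18.9 CPM in AMLE, against 20.2, 19.1 and 19.6 CPM in DMSO. These groups overlapped, and the log2 fold change of 0.06 ± 0.08 was not called (adjusted p = 0.541). Over the other fits except that against a 1.5-fold change, it ran from 0.01 to 0.12 with adjusted p between 0.201 and 0.953. No test was made of Pttg1 against the other genes.

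**Figure D2:**
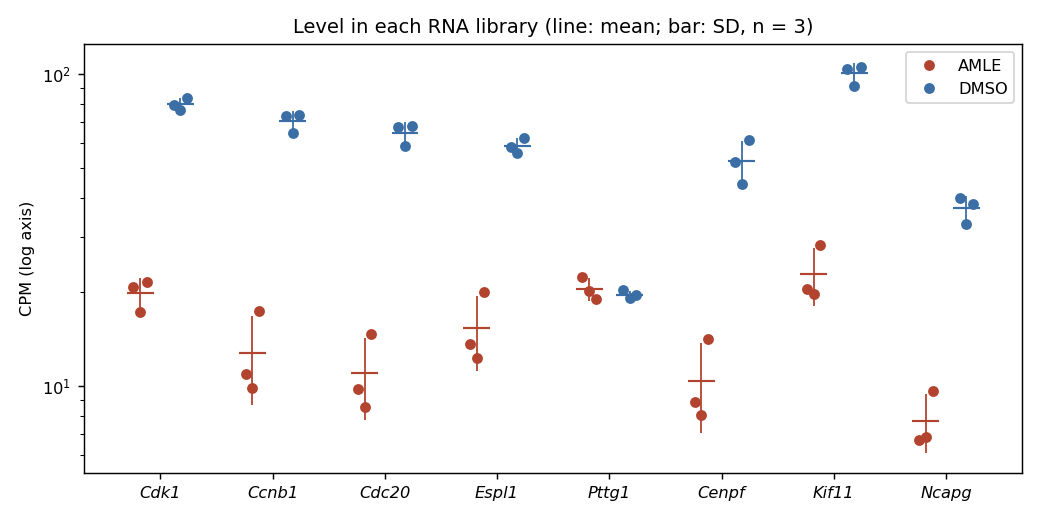
CPM on a log axis of 8 of the genes in each RNA library, AMLE left of DMSO for each gene; points are libraries, the horizontal line is the mean and the bar the SD (n = 3). In 7 genes every AMLE point lies below every DMSO point, and in Pttg1 the groups overlap at 18.9 to 22.3 CPM.

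Kinetochore and centromere genes fell in 10 of 10, with a median of −1.76 and a wide range. Cenpf, a large protein of the outer kinetochore, had 8.85, 8.08 and 14.2 CPM in AMLE, against 52.2, 44.4 and 61.2 CPM in DMSO (−2.35 ± 0.22, adjusted p = 0.000319). Within the NDC80 complex, which grips microtubule ends, Nuf2 fell by 2.14, Spc24 by 2.00, Ndc80 by 1.76 and Spc25 by 1.32 on the log2 scale. Cenpe, a kinetochore motor that brings chromosomes to the metaphase plate, fell by 2.01. Mad2l1, the checkpoint protein Mad2 that restrains Cdc20, fell by 1.58. Cenpa, the histone variant that marks centromeres, had 24.7, 20.1 and 30.3 CPM in AMLE, against 62.5, 55.3 and 69.8 CPM in DMSO, 2.51-fold lower (−1.33 ± 0.16, adjusted p = 0.000714). Cenpk (−1.76) and Cenpm (−1.46), subunits of the inner kinetochore network, fell too. Cenpm averaged 3.00 ± 0.988 CPM in AMLE and 8.14 ± 0.646 CPM in DMSO (SD, n = 3 each).

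Kinesins, the motors that move along microtubules, all fell, 8 of 8, with a median of −2.04 between −2.24 and −1.67. Kif11, which pushes spindle poles apart, had 20.5, 19.6 and 28.4 CPM in AMLE, against 104, 91.6 and 106 CPM in DMSO (−2.14 ± 0.15, adjusted p = 0.000106). Kif2c, which shortens microtubules at centromeres, fell by 2.24. Kif20a (−2.18) and Kif23 (−1.98), which work at the central spindle in cytokinesis, fell too. So did the chromosome-bound kinesins Kif22 (−2.04) and Kif4 (−2.03), Kif15, which stabilises the bipolar spindle (−1.93), and Kif18b, which limits the length of astral microtubules (−1.67). With Cenpe counted as a kinesin the median was −2.03.

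Spindle assembly genes fell in 5 of 5, with a median of −1.86. Tpx2, which activates Aurora A and nucleates microtubules around chromosomes, had 22.6, 23.0 and 30.5 CPM in AMLE, against 107, 99.5 and 112 CPM in DMSO (−2.06 ± 0.12, adjusted p = 6.71e-05). Hmmr (−2.11), Nusap1 (−1.86), Ckap2 (−1.83) and Ckap2l (−1.59), which bind spindle microtubules, also fell. The 4 cytokinesis genes fell with a median of −2.04. Anln, anillin, the scaffold of the contractile ring, averaged 9.57 ± 3.36 CPM in AMLE and 55.6 ± 8.64 CPM in DMSO (SD, n = 3 each), a fall of 5.84-fold (−2.55 ± 0.24, adjusted p = 0.000285). Prc1, which bundles the central spindle, fell by 2.10, and Racgap1 (−1.97) and Ect2 (−1.90), which together activate RhoA at the equator, fell by similar amounts.

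The chromosomal passenger complex carries Aurora B to centromeres. Its survivin subunit Birc5 fell by 2.17 and its borealin subunit Cdca8 by 1.98. Incenp, its scaffold, had 45.2, 39.3 and 63.9 CPM in AMLE, against 145, 131 and 156 CPM in DMSO, a fall of 2.91-fold (−1.54 ± 0.18, adjusted p = 0.000617).

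Condensin genes fell in 5 of 5, with the smallest median of the role groups, −1.60. Ncapg, a subunit found in condensin I alone, had 6.68, 6.86 and 9.63 CPM in AMLE, against 40.0, 33.0 and 38.2 CPM in DMSO (−2.27 ± 0.15, adjusted p = 9.18e-05). The other condensin I subunits, Ncaph and Ncapd2, fell by 1.96 and 1.53. Smc2 (−1.60) and Smc4 (−1.21), the ATPase subunits shared by both condensins, also fell. Smc4 had 68.2, 68.6 and 79.7 CPM in AMLE, against 171, 156 and 173 CPM in DMSO. The condensin II subunits, which were not in the set, fell by 1.18 for Ncapg2, 0.87 for Ncapd3 and 0.25 for Ncaph2, a median of −0.87 beside −1.96 for the condensin I subunits. That split was made after values were seen and was not tested.

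Mki67, the Ki-67 protein that coats mitotic chromosomes, had 117, 112 and 162 CPM in AMLE replicates 1 to 3, against 556, 494 and 555 CPM in the DMSO replicates (−2.04 ± 0.15, adjusted p = 0.000123). Top2a, the topoisomerase that untangles sister chromatids, averaged 93.8 ± 14.9 CPM in AMLE and 363 ± 22.7 CPM in DMSO (SD, n = 3 each; −1.95). Both transcription factors of the set fell. Foxm1 averaged 13.3 ± 3.32 CPM in AMLE and 54.7 ± 4.65 CPM in DMSO (−2.04), and Mybl2 averaged 10.8 ± 1.25 CPM in AMLE and 42.2 ± 1.71 CPM in DMSO (−1.97).

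Among the role groups with several members, the medians ran from −2.29 for cyclins and anaphase control to −1.60 for condensin, and the ranges of the groups overlapped. Kinases (−2.02), kinesins (−2.04) and cytokinesis genes (−2.04) had nearly the same median. Leaving out each library in turn moved the condensin median between −1.65 and −1.55, the kinetochore median between −1.88 and −1.62, the kinase median between −2.10 and −1.89 and the kinesin median between −2.21 and −1.91. Whether the groups of genes differed was not tested.

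AMLE replicate 3 lay nearest to the DMSO libraries in most of these genes. It held the highest AMLE value in 51 of the 55 genes, and AMLE replicate 2 held the lowest in 47. Set against the DMSO mean, the median difference over the 55 genes was −2.08, −2.26 and −1.69 on the log2 scale in AMLE replicates 1 to 3, and −0.13 to 0.12 in the DMSO libraries. AMLE replicate 3 lay above the mean of the other AMLE libraries by a median of 0.51 (log2) in these genes and by −0.001 over all tested genes. Without it the median log2 fold change of the set was −2.14 and 54 genes were still called. Within the AMLE libraries the genes spanned a median of 0.59 (log2) from lowest to highest, against 0.23 within the DMSO libraries.

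**Figure D3:**
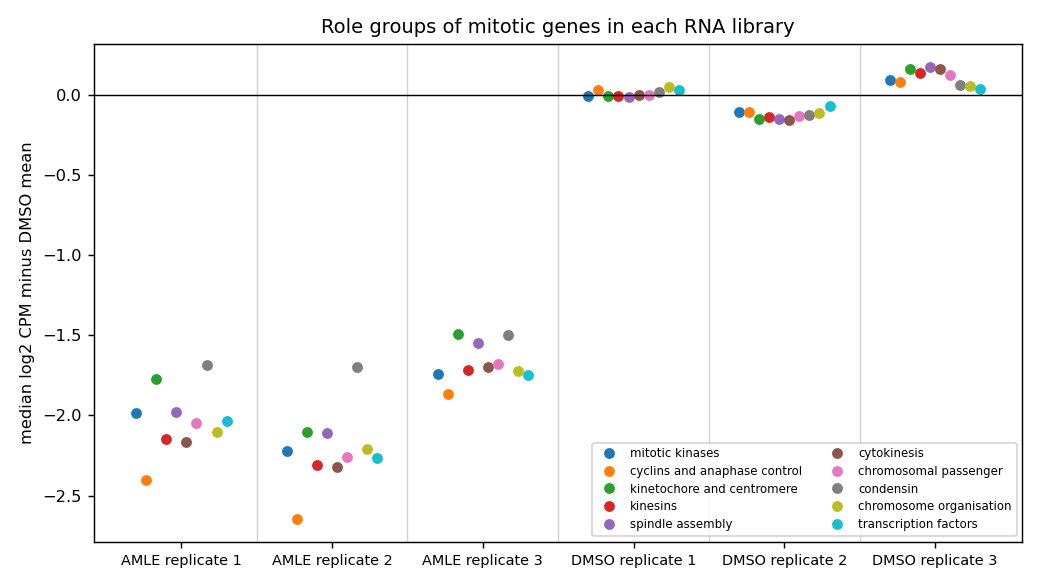
Median difference in log2 CPM from the DMSO mean for each role group in each RNA library; each point is the median over a group's genes. Over all 55 genes the medians were −2.08, −2.26 and −1.69 in AMLE replicates 1 to 3; the DMSO libraries lie near 0, and condensin sits highest in AMLE replicates 1 and 2.

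Mitotic genes outside the set fell as well. Their list and the replication, MuvB and marker lists below were chosen with earlier results of these data known. The counts describe these lists and are not independent support. Of 105 other mitotic genes tested, 93 fell, beside 25.6% of all tested genes, and 0 rose, beside 23.0%. None was higher at an unadjusted p under 0.05 either, and the median was −1.08. Pif1, a DNA helicase, fell by 2.53. Ska1, which couples kinetochores to microtubules, fell by 2.52, and Nek2, a centrosomal kinase, by 2.46. At the other end were the cohesin subunits and regulators Stag1 (−0.21), Pds5a (−0.19) and Stag2 (−0.13). Stag2 was called in 2 of 12 other fits and Pds5a in 10. Cohesin's 5 subunits in the list fell by 0.13 to 0.67. Of 14 subunits of the anaphase-promoting complex itself, the partner of Cdc20, 7 fell and 7 were not called, with a median of −0.18 between −0.49 for Anapc5 and 0.12 for Anapc16. The 8 augmin genes, which branch spindle microtubules, fell in 7 cases with a median of −0.71. These complexes were picked out after values were seen.

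Genes of DNA replication fell in 39 of 40, beside 25.6% of all tested genes, and rose in 0, beside 23.0%. None was higher at an unadjusted p under 0.05 either, and the median was −1.43. The origin-licensing factor Cdc6 (−2.30), Mcm10 (−2.18) and the helicase subunit Gins1 (−2.13) fell most. Gins4 (−0.45), Tk1, thymidine kinase (−0.66), and Rfc3, a clamp loader subunit (−0.70), fell least among those called. Cdc6 averaged 5.79 ± 0.916 CPM in AMLE and 28.3 ± 0.757 CPM in DMSO (SD, n = 3 each). Of 14 genes of the MuvB core, its pocket proteins, E2F partners and NF-Y, 8 fell, beside 25.6% of all tested genes, and 3 rose, beside 23.0%, with a median of −0.24. The share that rose was near that of all genes. Lin9, a MuvB subunit, fell by 1.22, Tfdp1, the E2F dimerisation partner, by 0.94 and Lin54, the MuvB subunit that reads the cell cycle homology region, by 0.76. E2f5, a repressive E2F, rose by 0.70, Lin37 by 0.32 and Nfya by 0.14. Nfya was called in 6 of 12 other fits, and Lin37 and E2f5 in all 12. In promoters, the core was found in 41.5% of 82 other mitotic genes and 30.3% of 33 replication genes, and CCAAT in 58.5% and 60.6%.

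Some cell type markers moved as well and others did not. Their counts stand beside 25.6% of all tested genes lower and 23.0% higher. Bulk libraries do not show which cells a transcript came from. All 10 tested markers of neutrophils and their precursors fell (of 11 listed), and their summed level was 1160.5 to 1527.7 CPM in AMLE and 4430.3 to 6381.6 CPM in DMSO. Elane, neutrophil elastase, made at the promyelocyte stage, averaged 4.95 ± 2.76 CPM in AMLE and 120 ± 13.8 CPM in DMSO (SD, n = 3 each; −4.62), and Mpo, myeloperoxidase, fell by 3.01. Cebpe, a granulocyte transcription factor, fell by 0.35 and was called in 9 of 12 other fits. Of 9 macrophage markers 5 fell and 1 rose, with sums of 949 to 1660.2 CPM in AMLE and 1561 to 1820.1 CPM in DMSO. Most of that sum was Csf1r, which was not called (933 ± 289 CPM in AMLE and 1062 ± 72.2 CPM in DMSO, SD, n = 3 each). Of the complement C1q chains, C1qa fell by 4.99, C1qb fell by 4.52 and C1qc fell by 4.55 on the log2 scale, and C1qa had the largest fall among called genes. Adgre1, which encodes F4/80, was higher by 0.21 and was called in 8 of 12 other fits. The stem and progenitor markers had 1 lower and 3 higher of 7, with sums of 109 to 172 CPM in AMLE and 83.5 to 121 CPM in DMSO. Mast cell and basophil markers rose in 5 of 6, with sums of 213 to 433 CPM in AMLE and 128 to 195 CPM in DMSO. Cpa3 (1.40) and Tpsb2 (2.00) were called in all 12 other fits, but Fcer1a in 7 and Mcpt8 and Hdc in 6. Of 9 dendritic cell markers 2 fell and 1 rose, neither share above that of all tested genes. Their sums were 6036.4 to 7573.6 CPM in AMLE and 6611 to 10489 CPM in DMSO. Cd209a, the lectin DC-SIGN, fell by 4.94 ± 0.92 (SE). It had 0.0388, 0.175 and 0.420 CPM in AMLE, near the floor, against 2.99, 3.27 and 13.4 CPM in DMSO. H2-Ab1, an MHC class II chain, fell by 0.70 (called in 7 of 12 other fits), and Zbtb46, a dendritic cell transcription factor, rose by 0.88. With the replicate block 6 of the 9 dendritic cell markers were lower and 1 was higher. The shares of all tested genes given above are from the fit without the block and do not apply to that count. Of 4 tested lymphocyte markers 0 were called, with sums of 18.7 to 27.7 CPM in AMLE and 17.9 to 26.7 CPM in DMSO. Erythroid markers summed to under 1 CPM in every library, with the globin genes Hba-a1, Hba-a2, Hbb-bs and Hbb-bt at 0 throughout, and stromal markers to 0.642 to 0.764 CPM in AMLE and 0.948 to 1.07 CPM in DMSO. Col1a1, the 1 stromal marker tested, fell by 0.76 and was called in 6 of 12 other fits. The part of these cell types in the fall of mitotic genes was not tested.

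Most promoters of the set carried ATAC peaks in both groups. A promoter counted as open when a peak overlapped 500 bp on either side of the listed start by at least 1 bp. Of 47 promoters, 44 and 43 had a peak in AMLE replicates 1 and 2, and 44 and 46 in DMSO replicates 1 and 2. The shares over tested genes were 71.8% and 71.6% in AMLE and 73.1% and 75.4% in DMSO. Both AMLE libraries had a peak at 41 promoters, beside 68.4% of tested genes, and both DMSO libraries at 44, beside 71.1%. The same 41 carried a peak in all 4 libraries, beside 66.4% of tested genes. None of the 44 promoters open in both DMSO libraries lacked a peak in both AMLE libraries, beside 1.87% of such tested genes. At a stricter −log10 q of at least 5 both libraries had a peak at 37 promoters in AMLE and 44 in DMSO, beside 6260 and 6736 of the 9978 tested genes with an entry. With at least 50% of the window covered the counts were 18 in AMLE and 23 in DMSO, beside 4235 and 4376 of the tested genes.

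The promoters printed above were open in all 4 libraries, but all except Cdc20 were picked among genes with a peak in some library. At Cdc20 the summit lay 113 and 107 bp before the start in the AMLE libraries, and 94 and 112 bp in the DMSO libraries. At Cenpf it lay 122 and 113 bp before the start in AMLE and 109 and 117 bp in DMSO, between the marked CCAAT boxes. In every library 37 of the 41 shared promoters had their summit within 250 bp of the start. That count was not made for promoters of other genes, and the peaks already had to overlap the window around the start. It is therefore not shown to be a trait of this set. Ranked by the peak caller's fold enrichment within each list, the 41 peaks had median percentiles of 78.1 and 77.6 in AMLE and 84.7 and 85.4 in DMSO. Each was the peak with the highest −log10 q in its window, ranked against all peaks, near a start or not. That rank was not computed for promoter peaks of other genes, so it is not a trait of this set. The lists held 15805 and 15597 intervals in AMLE and 18460 and 19225 in DMSO, and ranks from lists of unequal length cannot be set against each other.

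The remaining promoters were open in part. Bub1b had a peak in AMLE replicate 2 and both DMSO libraries. Espl1 and Kif4 each had one in AMLE replicate 1 and both DMSO libraries. Kif22 was open in AMLE replicate 2 and DMSO replicate 2, and Racgap1 in AMLE replicate 1 and DMSO replicate 2. Kif2c had none at its listed start, which lies 3852 bp inside the gene, and Ect2 and Mybl2 had peaks near listed starts 375 and 308 bp inside the gene. A peak lay over the outermost annotated start itself in all 4 libraries for 37 of the 47 genes, Kif2c among them, in 1 library for Mybl2 and in 0 for Pttg1 and Ect2. Pttg1, whose RNA was not called, had a peak near its listed start in all 4, with the summit 332 and 287 bp before its listed start in AMLE and 303 and 276 bp in DMSO. Another gene's start lay within 1000 bp of 12 of the 47, so a peak there may belong to either. Of the 35 without such a neighbour 30 were open in all 4 libraries.

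**Figure D4:**
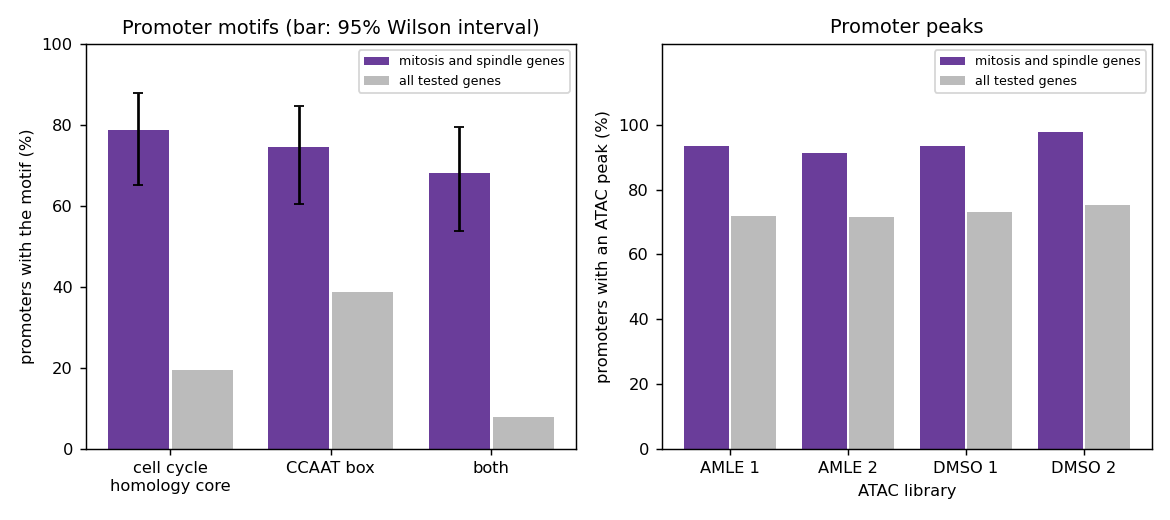
Left, percent of promoters with each motif between −250 and +50 for the 47 mitosis and spindle genes (95% Wilson interval) and all tested genes; right, percent of promoters with an ATAC peak in each library. Both motifs stood in 68.1% of the set and 7.82% of tested genes, while peaks stood at 44, 43, 44 and 46 of 47 promoters.

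Some counts could include reads of other genes, since the strand setting of the counting is not given in the sources used here. A further gene of the table overlaps 10 of the 55. The tested neighbours had log2 fold changes between −0.51 for Ppwd1 at Cenpk and 0.16 for 9530077C05Rik at Anln, except Oip5 at Nusap1, which fell by 1.58. RefSeq names a pseudogene for Aurkb, Ccnb1, Ccnb2, Kif2c, Kif4 and Kif22, so their counts are less certain.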

How the data were processed

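For RNA, the authors deposited raw read counts per gene symbol, 1 column per library, from stranded poly(A) libraries per the labels' protocols. Per the submitters' processing notes, Trim Galore 0.6.7, STAR 2.7.11b, SAMtools 1.7, Bowtie2 2.4.4, Picard, MACS3 3.0.0a7 and mm10 were used, without roles. No source used here gives the counting tool, its strand setting or the settings of peak calling. The ATAC files the authors deposited are 1 list of peaks for each library, each peak with a score, a fold enrichment (ratio over local background) and −log10 p and q values, and 1 consensus list per group. The fold and −log10 q are the peak caller's and served to rank or filter peaks inside a single list.

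Counts were tested with edgeR 4.0.16 in R 4.3.3 (TMM, default filter with minimum count 10, robust quasi-likelihood F test, two-sided), AMLE against DMSO. Adjusted p-values are Benjamini-Hochberg over 13075 genes, called below 0.05. Log2 fold changes are AMLE minus DMSO with approximate standard errors, and CPM use effective library sizes. The fit was tested on simulated data. Alternatives were DESeq2 1.42.0 (also its size factors alone), limma-voom 3.58.1, no filter, a test against a 1.5-fold change, a replicate block and libraries left out. DESeq2's size factors shifted all genes by 0.0146 (log2). Of the table's symbols 24277 matched RefSeq by current or older symbol, and 5 listed genes were matched by an older symbol; Ly6g had no match. Gene lengths were not used, so levels are not compared between genes. Peaks and motifs were compared by overlap and by exact letters on both strands. Wilson intervals cover counting error only.

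The members, gene lists, role groups and the rule for named genes were chosen with earlier results of these data known. The rule named all 55 members, and the 3 lowest and 3 highest called genes (mean CPM at least 1) of each further list. Replicate numbers come from the sample titles, which do not say what a number marks. Deviations from the group means correlated at 0.29, 0.28 and 0.43 between libraries of the same number. Between different numbers they ran from −0.31 to 0.11, and the negative ones all involved a library numbered 3. The numbers were therefore treated as possible pairs, and whether they mark pairs is not known. The printed fold changes, errors and p-values are from the fit without pairs, and the fit with a replicate block was an alternative.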

Additional observations from a re-analysis of the deposited data

How the results depend on the processing

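All 54 calls held with DESeq2, limma-voom, other size factors, no low-count filter, a test against a 1.5-fold change and each library left out. With the replicate block 54 of the 55 genes were again lower, 28 at least 4-fold, and the block neither lost nor added a call in the set, the other mitotic genes (93 lower), the MuvB list or the replication genes (39 lower). It added calls of H2-Aa, H2-Eb1, Cd74, Ciita, Mertk, Cd34, Gata2 and Ms4a2 among markers and lost none there. The count at least 4-fold lower is the least stable value, since the median lies at the 4-fold line: it was 13 to 41 with 1 library left out, the lowest without AMLE replicate 2 and the highest without AMLE replicate 3. Leaving out libraries moved the set's median log2 fold change between −2.14 and −1.87, and the count of other mitotic genes lower between 89 and 93. With 50% of the promoter window required to be covered, 18 promoters were open in both AMLE libraries and 23 in both DMSO libraries; the cause was not tested. No alternative moved the other counts of the set, of the other mitotic, MuvB and replication genes or of promoter peaks by over 1.5 times. ATAC depth is unknown, since only peak lists were used.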
